A study of Mus musculus with 8 samples.

Results

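The regenerating islet-derived (Reg) genes encode small secreted C-type lectins of gut defence and repair. The set described here is Reg3b, Reg3g, Reg3a, Reg1 and Reg4, 5 of the 53379 genes listed for each library, taken by gene symbol. They were chosen from earlier results on these same libraries, so their levels and differences are given as a description with no p-value, and no support is drawn from them. In the Results, how many of them lay past the threshold used for all genes is given beside the share of all genes that did. Nothing is read from it. Tests are given for genes outside the set. The set was measured by RNA sequencing of intestinal epithelial cells from the distal colon of C57BL/6 mice, in 8 libraries that form 4 groups of 2.

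The groups were RORaΔIEC mice given dextran sulfate sodium (DSS), RORaf/f mice given DSS, untreated RORaΔIEC mice and untreated RORaf/f mice. RORaΔIEC mice carry an intestine-specific knockout of Rora, the gene of the nuclear receptor RORα, and RORaf/f mice carry the floxed Rora alleles. The Cre driver, the age of the mice and whether the 2 libraries of a group came from separate animals are not given in the sources used here, so the p-values measure the spread between libraries, which may be technical. DSS, a sulfated polysaccharide that injures the colon epithelium, was given at 2% in the drinking water for 5 days, followed by 3 days of plain water. Cells were released by shaking washed colon pieces in buffer, with no sort described, so other cell types can be present.

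Reg3b and Reg3g are bactericidal lectins that gut epithelial cells secrete into the mucus. In the intestine their transcription is known to depend on microbial signals and on interleukin-22 acting through the transcription factor STAT3. Reg4 is known in the mouse colon as a marker of deep crypt secretory cells, the goblet-like cells that sit between stem cells at the crypt base, and it is also found in enteroendocrine cells. Reg1 is best known from the exocrine pancreas and the regenerating stomach.

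The libraries held 15971642 to 20418466 counts each, and 20381 to 20979 genes had a count. The targeted gene was scarce: Rora had 8 and 5 counts in RORaΔIEC DSS libraries, against 16 and 14 in RORaf/f DSS libraries, and 4 and 3 counts in RORaΔIEC control libraries, against 12 and 6 in RORaf/f control libraries. It was lower in every library labelled RORaΔIEC than in the RORaf/f libraries of the same treatment, with a log2 fold change of -1.24 ± 0.47 under DSS (SE, edgeR adjusted p = 0.0425) and -1.10 ± 0.62 in controls (adjusted p = 0.238). The epithelial marker Epcam, a cell adhesion protein, lay between 1601 and 1859 CPM (counts scaled to library size) in all 8 libraries, and all 12 genes of a colon epithelium list were detected in every group. The RORaΔIEC DSS libraries stood apart from the rest: 5.29% and 4.91% of their counts were mitochondrial, against 7.45% and 7.5% in RORaf/f DSS and 7.23% to 8.05% in controls. Their 2 libraries also differed more from each other, the chi-square of their counts over genes, divided by its degrees of freedom, being 5.23, against 1.29 to 2.23 in the other groups.

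5 of the 7 mouse Reg genes annotated in GENCODE release 21 belong to the set, and Reg2 and Reg3d are the other two. All but Reg4 lie in 1 cluster on chromosome 6 that spans 98.2 kb in build GRCm38 (mm10). Its order is Reg3b (positions 78370657 to 78373466, plus strand), Reg3d, Reg3a (78380709 to 78383827, plus strand), Reg2, Reg1 (78422711 to 78428667, plus strand) and Reg3g (78466269 to 78468872, minus strand). No other annotated gene lies between them. Reg4 stands alone on chromosome 3 (98222156 to 98236748, plus strand). Reg3b and Reg3g thus sit at opposite ends of the cluster and point towards each other, with the scarcely detected members between them.

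The upstream sequences of Reg3b and Reg3g are shown because these are the 2 members that were higher after DSS, and their upstream sequences are the most alike of the family. Each is the 250 bases before the RefSeq transcription start, read 5′ to 3′ on the gene's own strand from build GRCm38.p6, at chr6:78370635-78370884 for Reg3b and chr6:78468875-78469124 for Reg3g. The RefSeq start of Reg3b lies inside the GENCODE bounds given above, so most of its window overlaps them. The windows of Reg1 and Reg2 lie wholly inside the GENCODE bounds of these genes. Motif distances, absences and upstream identities below thus hold for the RefSeq starts only. Capitals mark matches to the motifs searched on both strands.
Reg3b: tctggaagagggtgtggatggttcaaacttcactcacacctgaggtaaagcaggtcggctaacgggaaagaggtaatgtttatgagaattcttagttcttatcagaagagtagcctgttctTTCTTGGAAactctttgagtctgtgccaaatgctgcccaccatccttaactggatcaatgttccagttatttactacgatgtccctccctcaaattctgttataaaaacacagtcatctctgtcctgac
Reg3g: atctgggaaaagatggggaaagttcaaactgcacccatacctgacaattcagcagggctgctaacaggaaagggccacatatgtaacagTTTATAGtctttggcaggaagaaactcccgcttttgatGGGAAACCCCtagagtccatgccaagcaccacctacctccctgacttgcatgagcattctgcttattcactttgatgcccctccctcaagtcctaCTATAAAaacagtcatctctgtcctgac

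The motif TTCNNNGAA, which STAT factors are known to bind, occurred once in the Reg3b sequence, with its first base 129 bases before the start, and did not occur in that of Reg3g. It was present in 7.02% of the 32851 promoters in the table over the same 250 bases. The NF-kB consensus occurred once in the Reg3g sequence, 123 bases before the start, and in 7.25% of all promoters. The CDX motif TTTATNG occurred at 161 and, on the opposite strand, at 28 bases before the Reg3g start, and in 9.81% of all promoters. The match nearer the start reads CTATAAA on the strand of the gene and so overlaps the letters of a TATA box. The ROR half-site AGGTCA, held by 14.0% of all promoters, occurred in none of the 5 members' windows. Reg3a, Reg1 and Reg4 had no match to any of the 4 motifs, and Reg3d had 1 STAT match and 1 ROR half-site. A match is only a match of letters, and its absence says only that these letters are not in this window.

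Reg3b and Reg3g were also the most similar pair upstream. The 250 bases were 68.4% identical over a gapped global alignment, whereas the other 20 pairs of the 7 genes lay between 44.9% and 56.9%. The 20 bases before each start were the same, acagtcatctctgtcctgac. Their coding sequences were 76.0% identical, within the 49.8% to 78.8% of the other pairs, of which Reg1 and Reg2 were the most alike. The longest run shared by any Reg3b and Reg3g transcript was 35 bases, and every expected count of all 5 members was a whole number in all 8 libraries, within a tolerance of 1e-06, so no fraction of a read was shared out to or from them.

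Among bactericidal members, Reg3b, whose protein is known to act mainly on Gram-negative bacteria, was nearly silent without DSS and among the most abundant transcripts with it. It had 275 and 286 TPM (transcript abundance corrected for length and library size) in RORaΔIEC DSS libraries and 407 and 419 TPM in RORaf/f DSS libraries. It had 2.19 and 4.03 TPM in RORaΔIEC control libraries and 0.77 and 0.24 TPM in RORaf/f control libraries. The 4 groups did not overlap, which groups of 2 libraries often do not (the share of all genes is given with each comparison), and their order was RORaf/f DSS, RORaΔIEC DSS, RORaΔIEC control and RORaf/f control from high to low. The 2 RORaf/f control values rest on 7 and 1 counts and the RORaΔIEC control values on 16 and 29, so the lower end of the range is set by few reads. By TPM, Reg3b ranked 455th and 460th of all genes in RORaΔIEC DSS libraries and 287th and 283rd in RORaf/f DSS libraries, against 10331st or lower in every control library.

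Reg3g, whose protein binds the peptidoglycan of Gram-positive bacteria, followed the same order of groups at lower levels. It had 71.3 and 69.3 TPM in RORaΔIEC DSS libraries and 101.7 and 101.0 TPM in RORaf/f DSS libraries. It had 1.54 and 1.78 TPM in RORaΔIEC control libraries and 1.05 and 0.96 TPM in RORaf/f control libraries. The control groups did not overlap in TPM, but they rest on 11 and 14 counts in RORaΔIEC and 10 and 8 counts in RORaf/f. The ratio of their pooled CPM (summed counts of a group over its summed scaled library sizes) was 1.64. Its exact 95% counting interval was 0.86 to 3.19. The gene has a spliced transcript of 771 bases and one of 2089 bases that keeps an intron. The deposited abundance-weighted gene lengths put the intron-keeping form at 0.72% and 0.60% of Reg3g transcripts in RORaΔIEC DSS libraries and 0.50% and 0.32% in RORaf/f DSS libraries, so the spliced form made up nearly all of it.

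Reg3a, the member whose name is shared with the human bactericidal lectin, was at the edge of detection. It had 0 and 1 counts in RORaΔIEC DSS libraries, 0 and 1 in RORaf/f DSS libraries, and 0 in all 4 control libraries. A count of 0 allows up to 3 counts, which is 0.150 to 0.191 CPM depending on the library. Reg1 had 2 and 0 counts in RORaΔIEC DSS libraries, 1 and 1 in RORaf/f DSS libraries, 1 and 1 in RORaΔIEC control libraries and 1 and 0 in RORaf/f control libraries. Neither passed the filter on low counts, which 14991 genes passed, and no difference in either was detectable at this depth. The family genes outside the set were as scarce: Reg2 had no count in any library, and Reg3d had 1 count in 1 RORaf/f DSS library.

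Reg4 was the abundant member without DSS and the least variable. It had 320 and 330 TPM in RORaΔIEC DSS libraries and 396 and 407 TPM in RORaf/f DSS libraries. It had 458 and 452 TPM in RORaΔIEC control libraries and 490 and 480 TPM in RORaf/f control libraries. The 4 groups did not overlap, in an order opposite to that of Reg3b and Reg3g for treatment: RORaf/f control was highest, then RORaΔIEC control, RORaf/f DSS and RORaΔIEC DSS. The highest library stood only 1.53 times above the lowest. The group means of Reg4 differed 1.49-fold, whereas those of Reg3b differed 818-fold and those of Reg3g 101-fold.

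**Figure D1:**
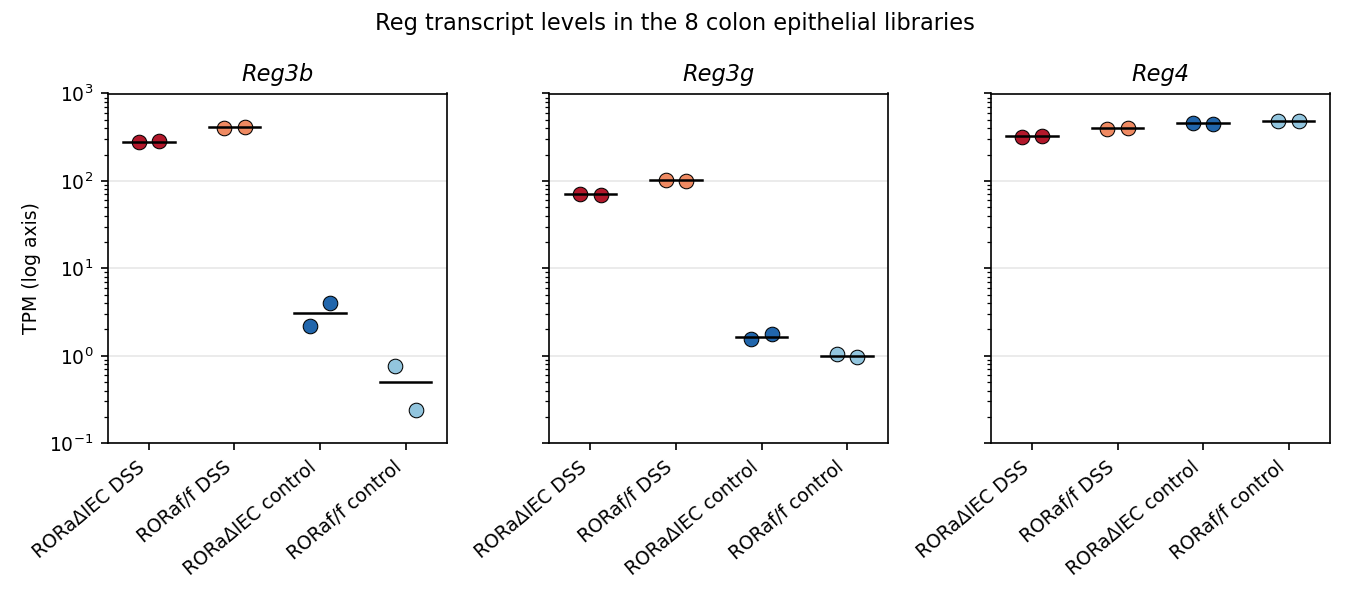
TPM (log axis) of Reg3b, Reg3g and Reg4 in each library; points are libraries, horizontal lines are means of 2, and colours are groups. Reg3b lies at 275 TPM or more in the 4 DSS libraries and at 4.03 TPM or less in the 4 control libraries, while Reg4 stays between 320 and 490 TPM throughout.

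DSS changed which lectin made up the family's RNA. In control libraries Reg4 gave 99.2% and 98.7% of the summed TPM of the 5 genes in RORaΔIEC and 99.6% and 99.8% in RORaf/f. In DSS libraries it gave 48.0% and 48.1% in RORaΔIEC and 43.7% and 43.9% in RORaf/f, and Reg3b with Reg3g gave 52.0% and 51.9% in RORaΔIEC and 56.3% and 56.1% in RORaf/f. The summed level was 666 and 686 TPM in RORaΔIEC DSS libraries and 905 and 927 TPM in RORaf/f DSS libraries, against 462 and 458 TPM in RORaΔIEC control libraries and 492 and 481 TPM in RORaf/f control libraries. The family sum was thus higher in each DSS library than in any control library, and within DSS it was lower in both RORaΔIEC libraries.

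The proportion of Reg3b to Reg3g was the same in both DSS groups within counting error. From summed counts it was 3.98 in RORaΔIEC DSS (exact 95% counting interval 3.72 to 4.27) and 4.07 in RORaf/f DSS (3.84 to 4.31). In controls it was 1.80 in RORaΔIEC (1.08 to 3.06) and 0.44 in RORaf/f (0.17 to 1.07). The control values rest on few counts: single libraries had 1.45 and 2.07 in RORaΔIEC and 0.70 and 0.125 in RORaf/f, the last from 1 Reg3b and 8 Reg3g counts, so that leaving out either RORaf/f control library moves the value by more than 1.5 times. All 4 were below the DSS libraries, although the interval of 1 RORaΔIEC control library (1.06 to 4.24) reached theirs. These intervals cover counting error only.

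**Figure D2:**
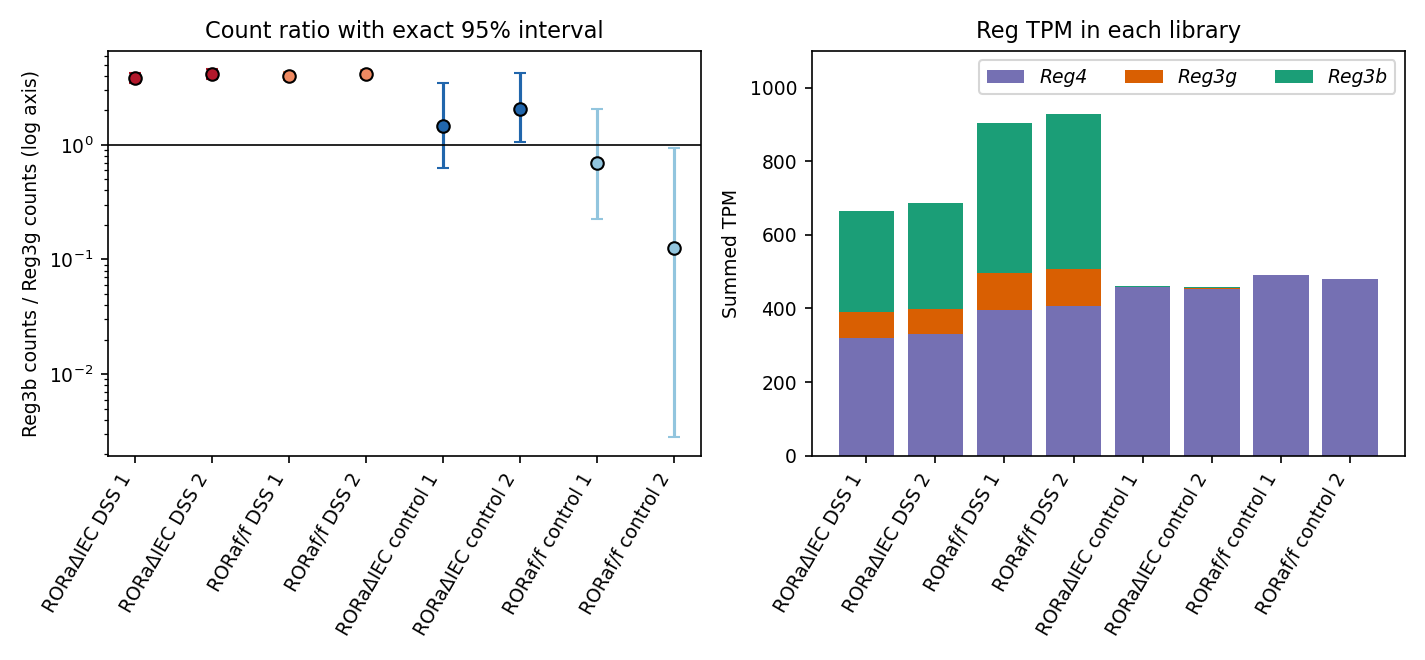
Left, Reg3b counts divided by Reg3g counts in each library (log axis) with exact 95% counting intervals; right, TPM of Reg4, Reg3g and Reg3b stacked in each library. The 4 DSS libraries share a ratio between 3.82 and 4.15, and the Reg3b and Reg3g parts of the bars are visible only in them.

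Reg3b and Reg3g were far higher after DSS in both genotypes, and Reg4 was lower in both. In RORaΔIEC mice, the log2 fold change of DSS over control was 6.40 ± 0.25 for Reg3b and 5.25 ± 0.23 for Reg3g (SE, n = 2 each, edgeR). In RORaf/f mice it was 9.69 ± 0.58 for Reg3b and 6.52 ± 0.26 for Reg3g. Reg4 had a log2 fold change of -0.60 ± 0.05 in RORaΔIEC and -0.39 ± 0.04 in RORaf/f, that is, 65.8% and 76.1% of the control level. As a ratio of pooled CPM, Reg3b was 85.0-fold higher with DSS in RORaΔIEC (exact 95% counting interval 63.4 to 117). In RORaf/f Reg3b was 852-fold higher (432 to 1974). In RORaf/f it had the highest log2 fold change of the 14991 genes tested, and in RORaΔIEC it ranked 77th; Reg3g ranked 18th in RORaf/f and 104th in RORaΔIEC. The Reg3b log2 fold change in RORaf/f hangs on the control libraries: it was 11.47 without RORaf/f control replicate 1 and 8.98 without RORaf/f control replicate 2.

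2 of the 3 members tested passed as higher and 1 as lower in each DSS comparison. Of all genes, 21.7% passed as higher and 19.8% as lower with DSS in RORaΔIEC, and 18.9% and 18.3% in RORaf/f. The 2 Reg3 genes were higher, and Reg4 lower, with no overlap of libraries in both genotypes. Of all genes, 34.6% were higher and 33.8% lower with no overlap in RORaΔIEC, and 34.5% and 35.7% in RORaf/f. Since the set was chosen with these results known, nothing is read from those counts. These are bulk samples, in which fewer cells of a type and less RNA per cell cannot be told apart.

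Between untreated mice, Reg3b was higher in RORaΔIEC, at 1.40 ± 0.54 CPM (SD, n = 2), against 0.20 ± 0.21 CPM in RORaf/f (SD, n = 2). The log2 fold change was 2.69 ± 0.63, the 26th highest of the genes tested. The ratio of pooled CPM was 6.63 (exact 95% counting interval 3.09 to 16.3) from 45 against 8 counts. The log2 fold change was 4.47 without RORaf/f control replicate 1, 1.98 without RORaf/f control replicate 2, and 2.22 without RORaΔIEC control replicate 2. Reg3g had a log2 fold change of 0.70 ± 0.34. Reg4 was 294.9 ± 2.1 CPM in RORaΔIEC and 325.7 ± 10.9 CPM in RORaf/f (SD, n = 2 each), a log2 fold change of -0.14 ± 0.04. Of the 3 measured members, 1 lay past the threshold as higher and 1 as lower, beside 9.19% and 6.22% of all genes; the first was 0 without RORaΔIEC control replicate 2, and the second was 0 without any 1 control or RORaf/f DSS library. All 3 had no overlap of libraries, 2 as higher and 1 as lower, as had 31.3% of all genes as higher and 28.0% as lower.

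Between mice given DSS, all 3 measurable members were lower in RORaΔIEC. Reg3b was 119.3 ± 6.9 CPM in RORaΔIEC and 180.1 ± 3.1 CPM in RORaf/f (SD, n = 2 each), a log2 fold change of -0.59 ± 0.06 or 66.2% of the RORaf/f level. Reg3g was 29.95 ± 0.03 CPM in RORaΔIEC and 44.31 ± 0.05 CPM in RORaf/f, a log2 fold change of -0.56 ± 0.06 or 67.6% of the RORaf/f level. Reg4 was 194.1 ± 8.1 CPM in RORaΔIEC and 247.8 ± 6.5 CPM in RORaf/f, a log2 fold change of -0.35 ± 0.05 or 78.3%. Without either RORaΔIEC DSS library in turn, the log2 fold change was -0.54 and -0.65 for Reg3b, -0.56 both times for Reg3g, and -0.31 and -0.39 for Reg4. No library of one genotype overlapped the other in any of the 3 genes, all lower, whereas 33.8% of all genes were lower and 34.4% higher with no overlap. Past the threshold as lower were 3 of 3 members and as higher 0, beside 17.7% and 21.3% of all genes. The part that the lower mitochondrial share of the RORaΔIEC DSS libraries has in these values was not tested.

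The DSS change itself was smaller upwards in RORaΔIEC for the Reg3 genes and larger downwards for Reg4. The difference of the DSS changes, RORaΔIEC minus RORaf/f, was -3.28 ± 0.63 for Reg3b, -1.27 ± 0.35 for Reg3g and -0.21 ± 0.06 for Reg4 on the log2 scale. For Reg3b it is made up of the 2.69 by which untreated RORaΔIEC was higher and the 0.59 by which RORaΔIEC with DSS was lower, so most of it comes from control libraries with few counts. It was -5.07 without RORaf/f control replicate 1 and -2.57 without RORaf/f control replicate 2. Past the threshold as lower were 3 of 3 members and as higher 0, beside 10.6% and 10.8% of all genes; with DESeq2, and with single libraries left out, the first count went down to 1. The 4 comparisons between groups share libraries, so their values for a gene are not independent.

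**Figure D3:**
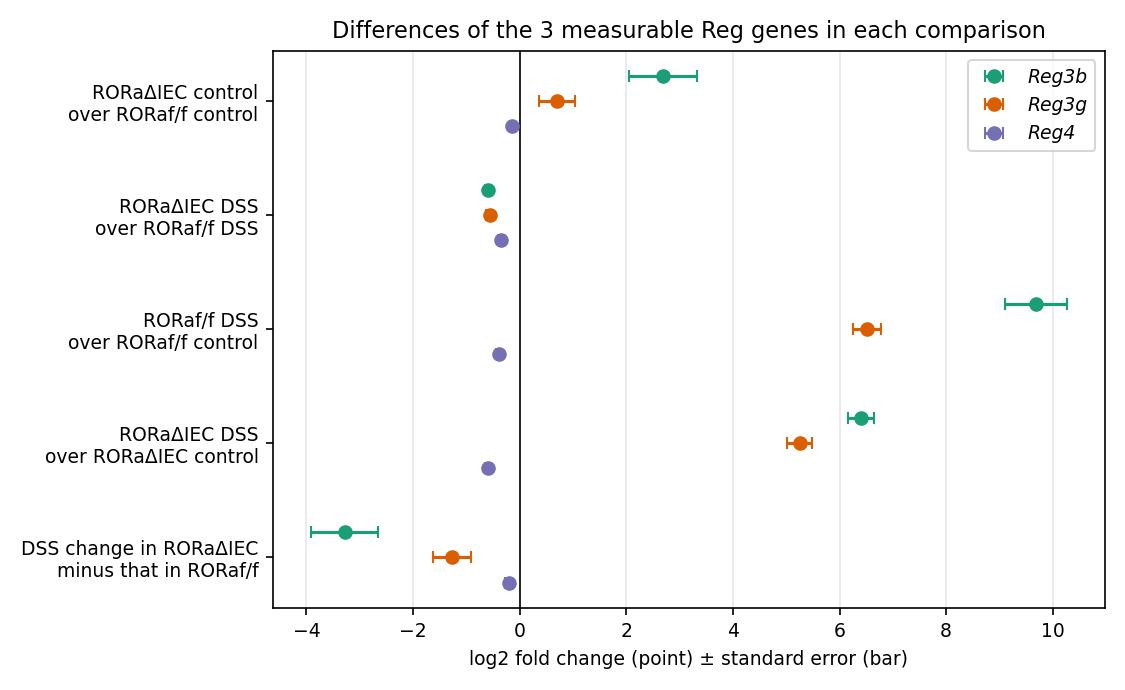
Log2 fold change (points) with its standard error (bars) of Reg3b, Reg3g and Reg4 in the 4 comparisons between groups and in the difference of the DSS changes. All 3 genes lie left of 0 between the DSS groups, from -0.59 to -0.35, while Reg3b and Reg3g lie at 5.25 or above in both DSS comparisons.

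The cytokines known to act above Reg3 transcription were listed together with the receptor gene Il22ra2, which did not pass the filter. Most of this list lay below the filter in these epithelial preparations, 5 of 12 genes passing it. Il22, the cytokine best known to induce Reg3b and Reg3g, had 4 and 2 counts in RORaΔIEC DSS libraries and none in the other 6. The 12 genes summed to 92.5 to 95.1 CPM in RORaΔIEC DSS and 16.7 to 17.2 CPM in RORaf/f DSS. In RORaΔIEC control they summed to 6.55 to 6.67 CPM, and in RORaf/f control to 6.36 to 8.12 CPM. How many of the 5 tested were higher between the DSS groups is not counted, since a scarce gene could pass the filter through RORaΔIEC DSS alone. Osm, the STAT3-activating cytokine oncostatin M, may have done so, with 261 counts there, 18 in RORaf/f DSS and 1 in all controls. Il1b, an inflammatory cytokine, was higher in RORaΔIEC DSS than in RORaf/f DSS by a log2 fold change of 2.97 ± 0.08 (edgeR adjusted p = 3.2e-12). Between untreated mice 0 of the 5 passed in either direction with edgeR, 0 also at an unadjusted p below 0.05 and 0 with DESeq2.

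The receptors and the STAT3 pathway were measurable throughout, all 21 listed genes passing the filter. Between DSS groups 8 were higher and 1 was lower in RORaΔIEC (median 0.06), beside 21.3% and 17.7% of all genes. List counts here and below are to be read beside the shares of all genes given above for each comparison. Il22ra1, the epithelial chain of the IL-22 receptor, was 33.6 CPM in RORaΔIEC DSS and 39.3 CPM in RORaf/f DSS, a log2 fold change of -0.22 ± 0.10 that did not pass (adjusted p = 0.092). Its partner chain Il10rb (0.03 ± 0.05, adjusted p = 0.70) and the shared IL-6 family receptor Il6st (-0.03 ± 0.08, adjusted p = 0.79) did not pass either. Stat3 rose by 0.23 ± 0.04 (adjusted p = 0.00079) and Osmr, the oncostatin M receptor, by 1.53 ± 0.25 (adjusted p = 0.00015). Socs3, the feedback inhibitor that STAT3 induces, was 82.0 CPM in RORaΔIEC DSS and 18.7 CPM in RORaf/f DSS, a rise of 2.13 ± 0.08 (adjusted p = 8.9e-11). Between untreated mice 3 of the 21 were higher and 3 were lower in RORaΔIEC (1 and 1 with DESeq2), with Il22ra1 higher by 0.32 ± 0.10 (adjusted p = 0.041).

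Most other genes that IL-22 and STAT3 are known to induce in epithelium moved opposite to the Reg genes between the DSS groups. In these unsorted cells their RNA can also come from other cell types. Of 24 listed, all tested, 20 were higher and 3 lower in RORaΔIEC DSS, with a median log2 fold change of 0.86 against -0.01 over all genes. Lrg1, a secreted acute-phase glycoprotein, rose by 5.05 ± 0.14 (edgeR adjusted p = 1.8e-13). Nos2, the inducible nitric oxide synthase, rose by 2.63 ± 0.07 (adjusted p = 1.5e-12). Ly6a, a surface protein of regenerating epithelium, rose by 1.63 ± 0.04 (adjusted p = 5.1e-12), and Saa1, serum amyloid A, by 0.42 ± 0.06 (adjusted p = 4.1e-05). The 3 lower genes were Il18, Muc4 and Pigr, which encode an epithelial cytokine, a membrane mucin and the immunoglobulin transporter. These 3 are named after their values were seen. With DSS, 21 of the 24 rose and 1 fell in RORaΔIEC, and 16 rose and 2 fell in RORaf/f, so Reg3b and Reg3g moved with most of this list between treatments and against most of it between the DSS genotypes. Between untreated mice 5 were higher and 5 were lower.

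Of the 24 listed targets, 2 (S100a8 and S100a9) are also in the neutrophil list, and markers of infiltrating cells moved in the same comparison. The 12 neutrophil markers summed to 298 to 321 CPM in RORaΔIEC DSS and 51.9 to 55.5 CPM in RORaf/f DSS, against 85.9 to 86.2 CPM in RORaΔIEC control and 97.3 to 99.8 CPM in RORaf/f control. Of the 12, 1 was at 0 in RORaΔIEC DSS, 4 in RORaf/f DSS, 9 in RORaΔIEC control and 8 in RORaf/f control. The sum in controls was nearly all Ly6g, a gene listed as a neutrophil surface marker. It had 107.7 CPM in RORaΔIEC DSS and 43.5 CPM in RORaf/f DSS. In controls it had 85.7 CPM in RORaΔIEC and 98.2 CPM in RORaf/f, where most of the listed markers were at 0. Ly6g and the sums that hold it can therefore not be read as neutrophil content. How many of the list were higher is not counted, since markers could pass the filter through RORaΔIEC DSS alone: Ngp, a neutrophil granule protein, had 129 counts there and 0 in the other groups. S100a9, which is in that list and in the target list, was 90.2 CPM in RORaΔIEC DSS and 3.60 CPM in RORaf/f DSS. Macrophage and monocyte markers summed to 164 to 173 CPM in RORaΔIEC DSS and 76.0 to 76.7 CPM in RORaf/f DSS, with none of 12 at 0, and 8 of 12 passed as higher with edgeR and 5 with DESeq2. The part of infiltrating cells in the lower Reg values and in the higher values of the listed targets was not tested. The colon epithelium list summed to 17277 to 18159 CPM in RORaΔIEC DSS and 16755 to 16891 CPM in RORaf/f DSS, 3 of its 12 genes passing as higher and 4 as lower.

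**Figure D4:**
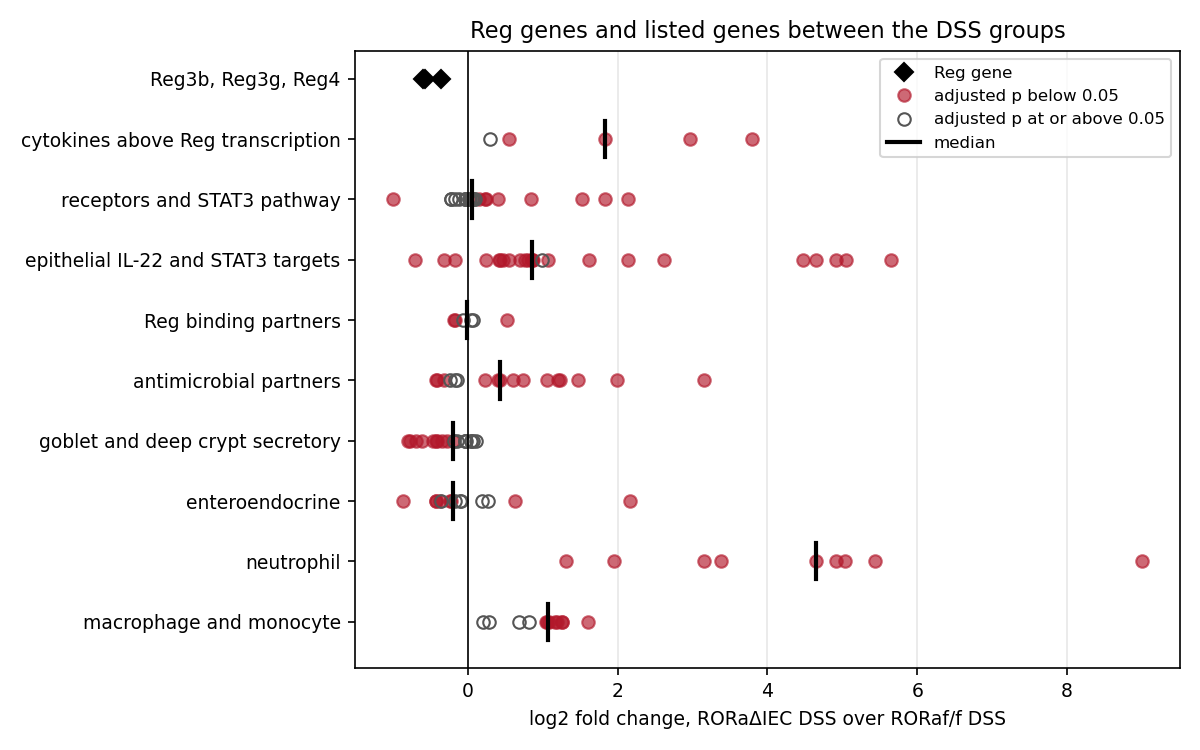
Log2 fold change of RORaΔIEC DSS over RORaf/f DSS for Reg3b, Reg3g and Reg4 (diamonds) and for each tested gene of 9 lists (circles, filled where the edgeR adjusted p is below 0.05; the vertical bars are list medians). The Reg genes lie between -0.59 and -0.35, whereas the median of the IL-22 and STAT3 targets is 0.86. The cytokines and neutrophil markers shown are those that passed the filter, which some could pass through RORaΔIEC DSS alone.

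Antimicrobial partners of the Reg lectins were split between the DSS groups. Of 19 listed, 17 could be tested. Of these, 11 were higher and 3 lower in RORaΔIEC (median 0.44), beside 21.3% and 17.7% of all genes. Some of these genes are also in other lists, Lyz2 among the macrophage markers and Ltf among the neutrophil markers. Ang4, Zg16 and Retnlb are also in the goblet list below, and Pigr is among the targets above. The counts of these lists are thus not independent, and the part of infiltrating cells in them was not tested. Slpi, a secreted protease inhibitor with antimicrobial activity, was higher by 2.00 ± 0.10 (edgeR adjusted p = 1.4e-09), and Pla2g2a, a bactericidal phospholipase, by 1.47 ± 0.09 (adjusted p = 8.4e-09). Ang4, an antimicrobial ribonuclease made by secretory cells, was 4.68 CPM in RORaΔIEC DSS and 6.27 CPM in RORaf/f DSS, a log2 fold change of -0.42 ± 0.13 (adjusted p = 0.020). Zg16, a mucus lectin that binds Gram-positive bacteria, was lower by a log2 fold change of -0.41 ± 0.05 (adjusted p = 9.7e-06). Retnlb, a goblet cell antimicrobial protein, had a log2 fold change of -0.15 ± 0.06 and did not pass (adjusted p = 0.0502). Between untreated mice 5 were higher and 3 lower (3 and 2 with DESeq2), and with DSS 10 rose and 6 fell in RORaΔIEC while 6 rose and 8 fell in RORaf/f; Ang4 fell in both, with a log2 fold change of -5.51 ± 0.10 in RORaΔIEC (adjusted p = 1.1e-15) and -4.89 ± 0.09 in RORaf/f (adjusted p = 6.9e-15), where Reg3b and Reg3g rose.

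Reg4 was set against the genes of the cells it marks. Of 19 goblet and deep crypt secretory genes, 0 were higher and 10 were lower in RORaΔIEC DSS than in RORaf/f DSS with edgeR (median -0.20). The counts were 0 and 12 at an unadjusted p below 0.05 and 0 and 8 with DESeq2. Of all genes, 21.3% passed as higher and 17.7% as lower in this comparison with edgeR. Kit, the receptor that marks deep crypt secretory cells, was lower with a log2 fold change of -0.80 ± 0.06 (adjusted p = 1.1e-07), Clca1, a secreted goblet cell protein, with -0.77 ± 0.03 (adjusted p = 9.2e-10), and Muc2, the main gel-forming mucin, with -0.69 ± 0.05 (adjusted p = 1.2e-07). Reg4, at -0.35, lay within the range of these genes. Between untreated mice 4 were higher and 8 lower (3 and 4 with DESeq2), with Retnlb higher by 0.45 ± 0.05 (adjusted p = 5.3e-05), the chemokine gene Ccl6 lower by a log2 fold change of -0.32 ± 0.05 (adjusted p = 0.00026), Clca1 at -0.23 ± 0.03 (adjusted p = 0.00037) and Muc2 higher by 0.31 ± 0.05 (adjusted p = 0.00080). With DSS 3 rose and 11 fell in RORaΔIEC, and 6 rose and 6 fell in RORaf/f. Clca1 fell in both, with a log2 fold change of -2.46 ± 0.03 in RORaΔIEC (adjusted p = 2.4e-15) and -1.92 ± 0.03 in RORaf/f (adjusted p = 4.1e-14).

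Enteroendocrine genes, of the other cell type that Reg4 is found in, moved opposite to Reg4 with DSS. Of 14 listed, 8 rose and 1 fell in RORaΔIEC, and 11 rose and 0 fell in RORaf/f, with median log2 fold changes of 0.46 and 0.57. In RORaf/f the counts with DESeq2 were 6 and 0, and at an unadjusted edgeR p below 0.05 they were 11 and 0. Chgb, a granin of secretory granules, rose by 0.71 ± 0.05 in RORaΔIEC (edgeR adjusted p = 1.8e-08) and by 1.27 ± 0.05 in RORaf/f (adjusted p = 7.1e-11). Between DSS groups 2 were higher and 6 lower in RORaΔIEC with edgeR, and 1 was higher and 3 lower with DESeq2. Of all genes, 21.3% passed as higher and 17.7% as lower there with edgeR. Tac1, the precursor of the neuropeptide substance P, went against most of the list: it was 23.7 CPM in RORaΔIEC DSS and 5.30 CPM in RORaf/f DSS, higher by 2.16 ± 0.13 (adjusted p = 1.0e-08). Gcg, the proglucagon gene, had -0.86 ± 0.08 (adjusted p = 5.92e-07) and Tph1, the serotonin synthesis enzyme, -0.36 ± 0.09 (adjusted p = 0.0057). Between untreated mice 2 were higher and 2 lower, with Sct, the secretin gene, higher by 1.04 ± 0.23 (adjusted p = 0.0058).

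The genes listed for proteins that bind Reg lectins, or that Reg proteins act through, were Extl3, Egfr, Cd44 and Sdc1. Ext1 and Ext2 are counted in the same list but are not taken here as such partners. All were measurable, 6 of 6 passing the filter. Extl3, a glycosyltransferase described as a Reg receptor, was 43.8 CPM in RORaΔIEC DSS and 49.7 CPM in RORaf/f DSS, a log2 fold change of -0.18 ± 0.06 (edgeR adjusted p = 0.028). Cd44, described as a partner of Reg4, was 38.2 CPM in RORaΔIEC DSS and 26.4 CPM in RORaf/f DSS, a rise of 0.53 ± 0.08 (adjusted p = 6.4e-05), and it was also higher in untreated RORaΔIEC by 0.59 ± 0.09 (adjusted p = 0.00033). Egfr, the EGF receptor, had -0.06 ± 0.06 between DSS groups and did not pass (adjusted p = 0.45). Sdc1, the heparan sulfate proteoglycan syndecan-1, was lower by a log2 fold change of -0.17 ± 0.04 between DSS groups (adjusted p = 0.0037) and higher by 0.25 ± 0.04 between untreated ones (adjusted p = 0.00064). In all, 1 was higher and 2 were lower in RORaΔIEC DSS (1 and 1 with DESeq2), beside 21.3% and 17.7% of all genes with edgeR. In untreated RORaΔIEC 4 were higher and 0 lower, beside 9.19% and 6.22% of all genes. The untreated counts were 4 and 1 at an unadjusted edgeR p below 0.05, and 2 and 0 with DESeq2.

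Markers of other cells in which Reg genes are abundant were examined for their presence. Of 12 pancreatic acinar markers, 2 passed the filter, Cela1 and Clps, and Prss1, Cela3b and Cpb1 had no count in any group. Of 11 Paneth cell markers 5 passed, and the 6 alpha-defensins listed had no count in any group. Of 12 small-intestinal enterocyte markers 7 passed, and Apoa4 had no count in any group. Of other cell types an epithelial preparation can hold, 5 of 13 T, NK and innate lymphoid cell markers could be tested, and 0 of them passed in either direction between RORaΔIEC DSS and RORaf/f DSS with edgeR (0 also at an unadjusted p below 0.05, and 0 with DESeq2). Of all genes, 21.3% passed as higher and 17.7% as lower between the DSS groups with edgeR. Of 9 B and plasma cell markers 8 could be tested. The 9 summed to 6.56 to 8.36 CPM in RORaΔIEC DSS and 10.4 to 11.0 CPM in RORaf/f DSS. Of 9 fibroblast and endothelial markers 6 could be tested. These 9 summed to 16.5 to 17.5 CPM in RORaΔIEC DSS and 13.2 to 14.2 CPM in RORaf/f DSS. How many of these scarce markers were higher or lower is not counted, since some could pass the filter through a single DSS group alone.

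The genes whose log2 CPM followed each member most closely over the 8 libraries were ranked by Pearson r over the 13183 tested genes whose average was 1 CPM or more. For Reg3b they were Id4, Lpcat3, Cyp2j6, Paqr4 and Tmem263, with r of 0.990 to 0.996, and Reg3g ranked 12th with r = 0.987. For Reg3g they were Tm9sf3, Galnt12, Sppl2a, C1galt1 and C1galt1c1, with r of 0.994 to 0.996, and Reg3b ranked 25th. For Reg4 they were Ugt2b35, Maoa, Hpn, Txnip and Dbp, with r of 0.994 to 0.999, and its r was -0.859 with Reg3b and -0.852 with Reg3g. These are descriptions: the DSS and control libraries form separate clusters, libraries of a group share their condition, and any gene with the same order of group means scores high. The changes of the genes most like Reg3b were small beside its own; Lpcat3, for example, averaged 108.2 CPM in RORaΔIEC DSS and 110.9 CPM in RORaf/f DSS, against 86.0 CPM in RORaΔIEC control and 81.5 CPM in RORaf/f control. Dbp, a clock-controlled transcription factor, averaged 39.0 CPM in RORaΔIEC DSS and 62.3 CPM in RORaf/f DSS, against 98.2 CPM in RORaΔIEC control and 132.0 CPM in RORaf/f control, the same order of groups as Reg4.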

How the data were processed

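RNA was sequenced from colon epithelial cells in 8 libraries, grouped by their titles. Per the submitters' processing notes, the authors used STAR 2.5.3a, RSEM 1.3.0, DESeq2 1.18.1 and build mm10; the annotation release and strand setting are not given in the sources used here. The deposited tables hold RSEM expected counts and TPM (transcript abundance corrected for length and library size) per gene; 90.2% or more of the expected counts in each library were whole within 1e-06. RSEM effective lengths, deposited by the authors as other values, served 1 alternative. Expected counts were rounded, filtered (edgeR filterByExpr) and scaled by TMM, and 14991 genes were tested in edgeR 4.0.16 (R 4.3.3) by the quasi-likelihood test with 1 mean per group over the 8 libraries and 4 residual degrees of freedom. P-values were adjusted by Benjamini-Hochberg over all genes, with a threshold of 0.05. Standard errors came from the fit's working weights and moderated dispersion. CPM used TMM-scaled totals, and log2 CPM a prior count of 2. The fit was checked on simulated data. The members and the 17 gene lists were chosen with earlier results of these data known. Listed genes are named by a rule: the 2 with the smallest p in each comparison, plus a few fixed pathway genes; those most relevant to the Reg genes are printed. Likeness was ranked by Pearson r. Gene positions are from GENCODE release 21, with which 94.8% of the identifiers matched, version included; upstream sequences are from RefSeq, build GRCm38.p6, and all 7 Reg genes matched by symbol. Alternatives were DESeq2 1.42.0, upper-quartile scaling, no filter, effective-length offsets, a replicate block, a fit of the 2 groups compared alone, and leaving out each library.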

Additional observations from a re-analysis of the deposited data

Results flagged for a closer look

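The DSS change in RORaΔIEC minus that in RORaf/f, on the log2 scale, was -3.28 for Reg3b, -1.27 for Reg3g and -0.21 for Reg4. For these genes it is a description with no test, since they were chosen with results of these libraries known; the Reg3g value lay past the threshold in 8 of 13 alternatives and the Reg4 value in 6 of 13. For the genes that follow, the difference passed the interaction term of the edgeR fit at an adjusted p below 0.05. Among named genes of the cytokine, receptor and STAT3 lists it was 3.30 for Il1b, 2.24 for Tnf (tumour necrosis factor), -0.54 for Il22ra1, 0.22 for Stat3 and 2.18 for Socs3. Among the targets it was 4.61 for Lrg1, 2.31 for Nos2, 1.11 for Ly6a and 0.99 for Saa1. Among the Reg binding partners it was -0.31 for Egfr and -0.42 for Sdc1. Among antimicrobial and secretory genes it was -0.62 for Ang4, -0.60 for Retnlb, 0.79 for Slpi, 1.44 for Pla2g2a, -1.01 for Muc2, -0.54 for Clca1 and -0.57 for Kit. Among enteroendocrine genes it was 1.94 for Tac1, -0.56 for Chgb, -0.77 for Gcg, -0.85 for Tph1 and -1.14 for Sct. For Ly6g, which is in the neutrophil list but cannot be read as neutrophil content here, it was 1.5.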

How the results depend on the processing

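Of 210 log2 fold changes of Reg3b, Reg3g and Reg4 under alternatives, none of the called ones reversed, 188 kept their side of the threshold and 22 lost the call, all between untreated groups or in the difference of the DSS changes; where no construction explains it, the cause was not tested. Between untreated groups the number of Reg genes called lower was 0 with DESeq2, effective-length offsets and the replicate block, against 1 as reported, and 0 to 1 when libraries were left out; the number called higher was also 0 to 1. For the difference of the DSS changes, the Reg genes called lower were 1 with DESeq2 and 1 to 3 with libraries left out, against 3. All genes called between untreated groups numbered 1246 with DESeq2, 1290 with effective-length offsets and 953 to 3174 with libraries left out, against 2310; listed genes numbered 39 with DESeq2 and 34 to 70 with libraries left out, against 60. DESeq2 called 3801 genes between DSS groups, against 5855, and 3409 with DSS in RORaf/f, against 5573, where leaving out libraries gave 3659 to 6426. For the difference of the DSS changes all genes called were 1684 with DESeq2, 1794 with effective-length offsets and 1891 to 4444 with libraries left out, against 3208. Same-numbered libraries showed no strong shared deviation (correlations of -0.112 to 0.0772). Counting error is a large part of such deviations in most groups, so these correlations cannot exclude that the labels' numbers pair libraries. The replicate block gave 2186 calls between untreated groups, 5791 between DSS groups, and 6142 and 5449 with DSS in RORaΔIEC and RORaf/f. A block with the RORaf/f DSS numbers crossed, chosen after seeing the data, called 5186 genes and 3 Reg genes with DSS in RORaf/f. No share of all genes keeping or losing a call is set beside the counts of Reg genes in this section. The Reg genes were chosen with these results known, so nothing is read from those counts. Depth limits Reg3a and Reg1 everywhere, and Reg3b and Reg3g in controls.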
